A study of Arabidopsis thaliana with 9 samples.

Results

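In dark-grown Arabidopsis thaliana seedlings, 35 of 32548 genes had almost no reads in the wild type and a clear signal in every library of both the cop1-4 and the spaQ mutant. A gene entered this set when its mean level over the wild-type libraries was below 0.2 CPM and its level was at least 2 CPM in each of the 6 mutant libraries. CPM is the read count of a gene per 1000000 counted reads of its library. The set therefore was chosen on the measured levels themselves, so that its rise over the wild type is a description of how it was picked and carries no test.

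The study compared RNA from whole seedlings aged 3 days of the wild type Col-0, of cop1-4 and of spaQ, with 3 libraries for each genotype. Per the labels the ecotype of both mutants is Col-0, and the alleles behind spaQ are not listed. The name cop1-4 is used for a weak allele of COP1, so that some COP1 function may remain, and spaQ is the field's name for a line that lacks the function of the 4 SPA genes. Seeds of all 3 genotypes spent 3 days in the cold and dark, received 3 h of white light, 21 h of darkness and a far-red treatment of 2000 µmol m-2, and then grew in darkness for 2 days, so that every group had seen some light.

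COP1 is a RING-type ubiquitin ligase that works in a complex with SPA proteins and, in darkness, marks light-response transcription factors such as HY5 for degradation. Seedlings without this activity open their cotyledons and stay short in the dark, as if they had seen light. Factors released from COP1 and SPA control bind short promoter elements, among which the G-box with its ACGT core is the best known, and the genes they switch on include regulators and enzymes.

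MIR163 was the only microRNA gene among the 35. Its sequence and those of its sites in 2 methyltransferase transcripts are shown because these transcripts went in the opposite direction in the same libraries. Sequences were taken from the RefSeq genome TAIR10.1 and its transcripts, and run 5′ to 3′. The mature miR163 of 24 bases lies at chr1:24884359-24884382 on the plus strand, inside the precursor gene at chr1:24884066-24884396. The capitals mark the seed, bases 2 to 8.
miR163: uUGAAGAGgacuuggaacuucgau
In the 2 target transcripts below, capitals mark the bases that pair with miR163 when both are laid side by side without gaps, which leaves 5 mismatches at the 5′ end of each site.
PXMT1 site: catcgAGTTCCAAGTCCTCTTCAA
AT1G66690 site: catcgAGTTCCAAGTCCTCTTCAA
Both sites had the same 24 letters, and the seed was paired along its whole length in both.

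The G-box CACGTG occurred in the 250 bases before the annotated start of 2 of the 35 genes, on either strand. The windows of these genes, the B-box gene BBX30 and the acyltransferase-like gene SCPL10, are printed with the G-box in capitals because the 2 genes illustrate where the element stood. The BBX30 window is chr4:8708591-8708840 and the SCPL10 window chr2:9791916-9792165, both on the plus strand.
BBX30: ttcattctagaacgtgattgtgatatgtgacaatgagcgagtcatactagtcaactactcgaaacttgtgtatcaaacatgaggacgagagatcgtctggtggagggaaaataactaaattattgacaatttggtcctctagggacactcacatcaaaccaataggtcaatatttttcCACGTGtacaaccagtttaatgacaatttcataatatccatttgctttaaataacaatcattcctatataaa
SCPL10: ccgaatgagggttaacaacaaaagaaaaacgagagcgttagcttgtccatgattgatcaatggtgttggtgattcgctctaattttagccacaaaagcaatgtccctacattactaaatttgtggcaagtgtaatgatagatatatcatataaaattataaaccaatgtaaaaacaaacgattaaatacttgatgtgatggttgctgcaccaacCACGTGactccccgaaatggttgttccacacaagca
The share of members with a G-box, 5.71%, was close to the 5.90% of all 32546 genes with such a window. The ACGT core, which every G-box contains, was found before 15 members (42.9%) and before 42.8% of all genes. The I-box GATAAG stood before 6 members (17.1%, against 12.4% of all genes), the evening element AAATATCT before 2 (5.71% against 4.56%) and the CCA1 site AAAAATCT before 4 (11.4% against 6.38%). The MIR163 window held a CCA1 site and neither a G-box nor an ACGT core. A match is a run of letters, not a site shown to be used, and no test was made.

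The 9 libraries held 22482588 to 38770474 counted reads, so that 1 read was worth well under 0.1 CPM in each. The labels do not say whether the libraries came from separate sowings, and p-values therefore measure the spread between libraries, which may be technical. Mean CPM of the COP1 gene was 36.8 (Col-0), 29.7 (cop1-4) and 71.7 (spaQ), and SPA2 had 59.4, 58.8 and 47.9 CPM. The 5 targeted loci summed to 161 to 188 CPM (Col-0), 349 to 421 CPM (cop1-4) and 227 to 241 CPM (spaQ). Of the 5 loci, 4 were called higher and 0 lower in each mutant. Of all genes, 31.8% were higher and 30.3% lower in cop1-4, and 35.5% and 36.1% in spaQ. Reads at the targeted loci thus remained in both mutants and did not check the labels. Markers of photosynthetic cells (5 genes, all called higher in both mutants) summed to 2674 to 3294 CPM (Col-0), 28640 to 30550 CPM (cop1-4) and 30470 to 33240 CPM (spaQ). Stomatal lineage markers (7 of 7 higher in both, where 31.8% of all genes were higher in cop1-4 and 35.5% in spaQ) summed to 13.4 to 15.0, 39.4 to 44.8 and 35.7 to 36.8 CPM. Guard cell markers (2 of 6 higher and 3 lower in both) summed to 59.3 to 72.7, 36.9 to 41.8 and 42.8 to 45.3 CPM, and no marker of these 3 lists was among the 35 genes. Seedlings were sampled whole, so that fewer cells of a type and less RNA per cell cannot be told apart, and the part of these cell types in the levels below was not tested.

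Of the 32548 genes, 11401 had a mean below 0.2 CPM in Col-0, and 7798 of these had no read in any Col-0 library. Only 40 of the 11401 reached 2 CPM in every cop1-4 library and 67 did so in every spaQ library. The 35 genes were on in both, which is 87.5% of the cop1-4 genes and 52.2% of the spaQ genes. The remaining 5 and 32 genes passed the limit in 1 mutant only. Among the 35 were 34 protein-coding genes, whereas 60.4% of the silent genes were protein-coding. Close to the Col-0 limit, MIR163 (0.188 CPM) and CIPK20 (0.183 CPM) were inside and AT5G44050 (0.201 CPM) and AT1G22690 (0.221 CPM) outside. Close to the mutant limit, the lowest library of CYP71B4 was at 2.1 CPM and that of AT3G11110 at 2.75 CPM inside, while ABCA6 (1.98 CPM) and AT1G10770 (1.92 CPM) fell short.

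**Figure D1:**
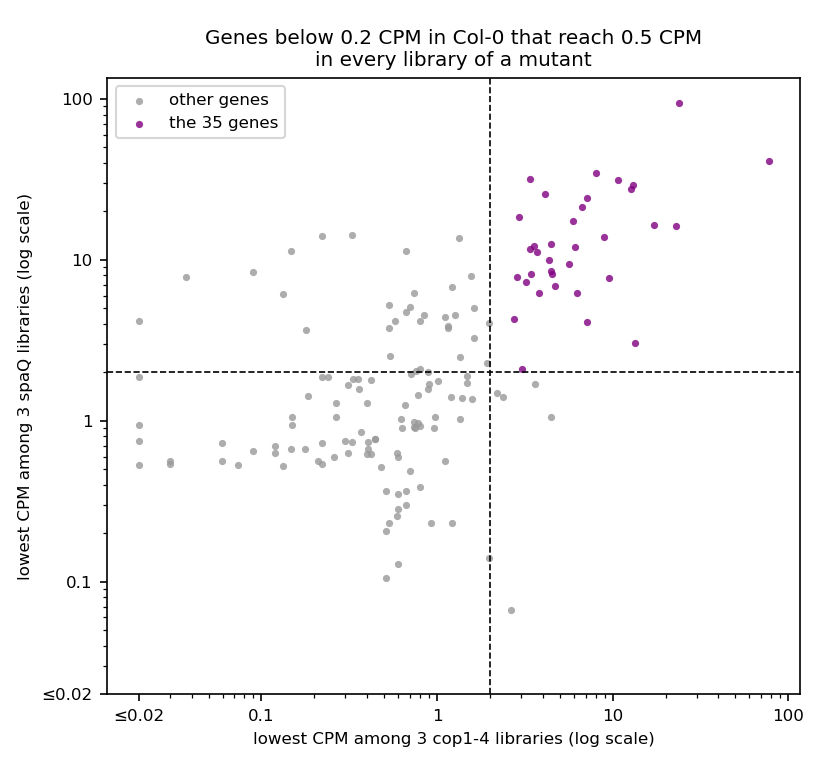
Each point is 1 of the 155 genes with a mean below 0.2 CPM in Col-0 that reached at least 0.5 CPM in every library of a mutant; the axes (log scale) give the lowest CPM among the 3 cop1-4 and among the 3 spaQ libraries, and the dashed lines stand at 2 CPM. The 35 genes fill the upper right field by construction, and 32 genes lie above the spaQ line only against 5 beyond the cop1-4 line only.

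The silence in Col-0 was near the limit of counting. All 35 genes together had 131, 81 and 92 reads in the Col-0 libraries, a summed level of 2.93 to 4.06 CPM. The same sum was 353 to 371 CPM in cop1-4 and 621 to 710 CPM in spaQ. The cytochrome P450 gene CYP706A6 and the RING-type gene AT3G11110 had no read in any Col-0 library, 11 genes had at most 3 reads over the 3 libraries, and no gene had more than 17. The median of the gene means was 6.07 CPM in cop1-4 (2.81 to 86.8) and 12.8 CPM in spaQ (3.31 to 98.6). In the fit across 20779 genes with edgeR's quasi-likelihood test, 31.8% of all genes were called higher in cop1-4 and 35.5% higher in spaQ than in Col-0 at a Benjamini-Hochberg adjusted p below 0.05. All 35 genes were higher in both, which the rule fixed. The authors' deposited tables of regulated genes also listed all 35 for both mutants, with log2 fold changes of 4.55 to 9.01 for cop1-4 and 4.80 to 10.1 for spaQ.

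**Figure D2:**
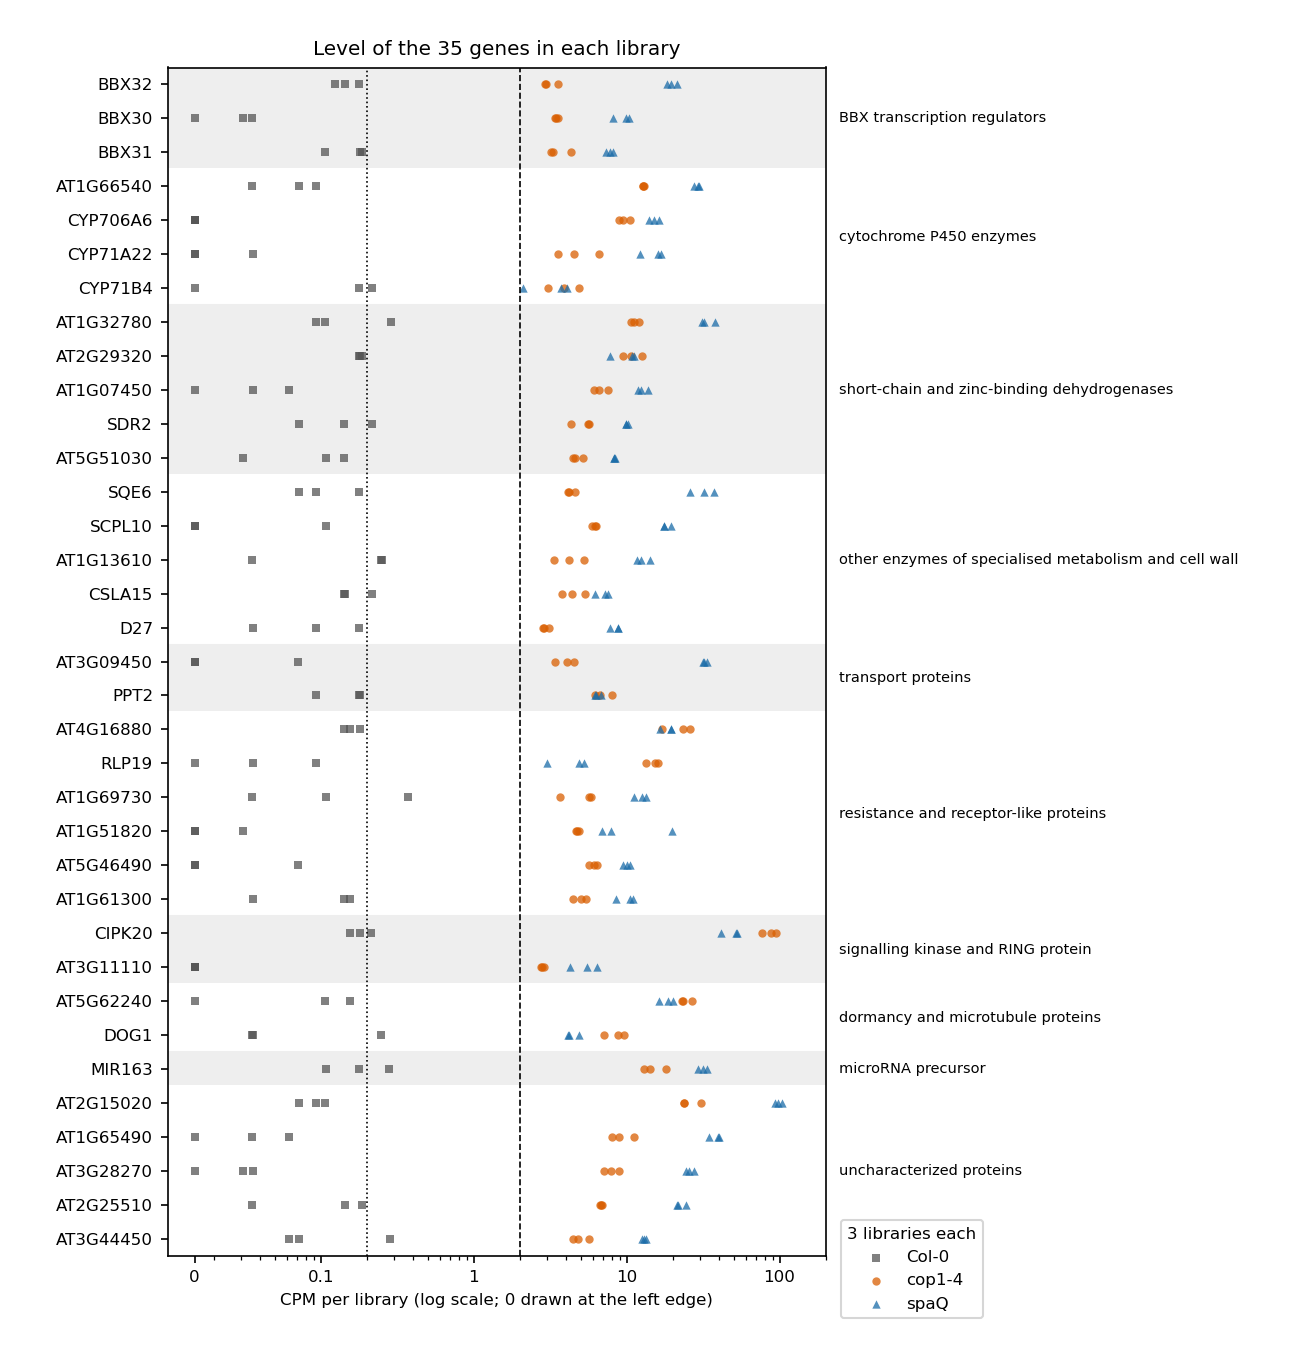
The CPM (log scale) of each of the 35 genes is drawn for every library, 3 per genotype, with the genes ordered by role; the dotted line is the limit of 0.2 CPM for the Col-0 mean and the dashed line the limit of 2 CPM for each mutant library. The Col-0 points scatter at or near 0 reads, and in most rows the 3 spaQ points lie to the right of the 3 cop1-4 points, with CIPK20, RLP19, DOG1 and AT5G62240 the other way round.

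The level reached in the mutants differed between them for most of the 35 genes, and this contrast was not part of the rule. Every spaQ library was above every cop1-4 library for 27 genes and below it for 4, and the libraries overlapped for 4. How many of all genes separated in this way was not counted. By edgeR's quasi-likelihood test, 27 genes were higher in spaQ, 4 were lower and 4 were not called, whereas 24% of all genes tested were called higher and 23.5% lower, 47.5% together. The median log2 fold change of spaQ over cop1-4 was 1.15 for the 35 genes and -0.01 for all genes. The highest values were those of the transporter-like gene AT3G09450, of SQE6 and of BBX32, and the lowest was that of the receptor-like protein gene RLP19. Membership required the same floor in both mutants, so that genes on in 1 mutant only are left out of these counts.

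**Figure D3:**
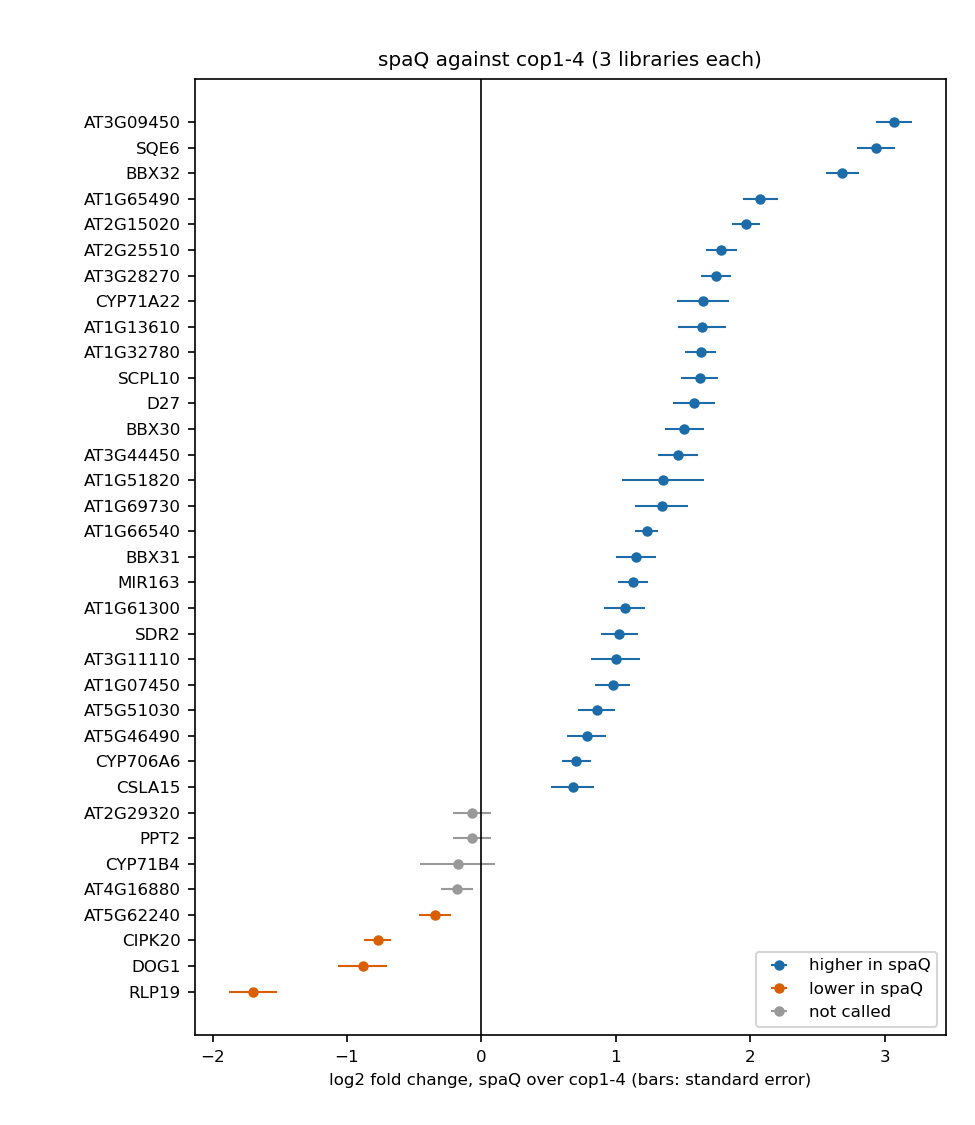
The log2 fold change of spaQ over cop1-4 is shown for the 35 genes in order of size, with bars for the standard error of the fit (3 libraries per genotype); colours give genes called higher, lower or not called. The values run from 3.07 for AT3G09450 to -1.70 for RLP19, with the 4 genes that were not called between -0.18 and -0.07.

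The transcription regulators among the genes switched on were 3 members of the B-box (BBX) family. BBX30, BBX31 and BBX32 are small proteins that lack the CCT domain of the CONSTANS-like members and pair with other factors of light signalling, and BBX32 is known to hold back HY5-dependent responses. BBX32 (chr3:7412445-7413727) had 0.124, 0.145 and 0.177 CPM in the Col-0 libraries, 3.56, 2.99 and 2.94 CPM in those of cop1-4, and 19.4, 21.3 and 18.4 CPM in those of spaQ. The 3 genotypes formed separate steps, and spaQ was above cop1-4 by 2.68 ± 0.12 on the log2 scale (standard error, adjusted p = 7.7e-10). BBX30 had a mean of 3.47 ± 0.08 CPM (SD, n = 3) in cop1-4 and of 9.48 ± 1.2 CPM in spaQ, higher by 1.51 ± 0.14 on the log2 scale (adjusted p = 8.9e-07). BBX31 stood at 3.63 ± 0.64 and 7.73 ± 0.43 CPM, a log2 fold change of 1.15 ± 0.15 (adjusted p = 1.71e-05). The 2 small regulators BBX30 and BBX31 were each other's closest relatives among all transcripts, with 70.2% identity over 440 bases. Of 30 BBX genes looked up, which did not include BBX11 and BBX23, 8 were below 0.2 CPM in Col-0. These 3 were the ones that came on in both mutants. BBX16, the next of the silent ones, reached means of 0.560 CPM in cop1-4 and 0.458 CPM in spaQ.

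The set held 4 cytochrome P450 genes, which encode haem monooxygenases of secondary and hormone metabolism. CYP706A6 (chr4:7313779-7316871) had 0 reads in each Col-0 library, 8.92, 10.5 and 9.52 CPM in cop1-4, and 14.0, 15.0 and 16.2 CPM in spaQ. Against a floor of 3 reads per Col-0 library, these levels were at least 94.0-fold and at least 147-fold higher. The spaQ libraries were all above the cop1-4 libraries by a modest log2 fold change of 0.71 ± 0.11 (adjusted p = 1.65e-04). AT1G66540 (chr1:24824356-24826683) had 0.0929, 0.0723 and 0.0354 CPM in the Col-0 libraries, 12.9, 12.7 and 12.8 CPM in those of cop1-4, and 29.6, 27.7 and 29.3 CPM in those of spaQ. Its cop1-4 libraries were nearly equal, and the spaQ level was higher by 1.23 ± 0.08 on the log2 scale (adjusted p = 3.85e-08). CYP71A22 was at 4.89 ± 1.5 CPM in cop1-4 and at 15.0 ± 2.4 CPM in spaQ (log2 fold change 1.65 ± 0.20, adjusted p = 7.23e-06). CYP71B4 had 3.05, 4.92 and 3.87 CPM in cop1-4 and 2.1, 4.08 and 3.75 CPM in spaQ, and the mutants were not told apart (log2 fold change -0.18 ± 0.28, adjusted p = 0.632).

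Another 5 genes encode dehydrogenases, enzymes that move hydride between NAD(P) cofactors and their substrates. The zinc-binding dehydrogenase gene AT1G32780 (chr1:11869752-11872926) had 0.0929, 0.289 and 0.106 CPM in the Col-0 libraries, 12.1, 10.7 and 11.2 CPM in those of cop1-4, and 31.9, 37.9 and 31.3 CPM in those of spaQ. It was higher in spaQ by 1.63 ± 0.12 on the log2 scale (adjusted p = 5.14e-08). The NAD(P)-binding Rossmann-fold genes SDR2, AT1G07450 and AT5G51030 were also higher in spaQ, with log2 fold changes of 1.03, 0.98 and 0.86 and means of 10.1, 12.7 and 8.29 CPM in spaQ. SDR2 shares 115 bases with CYP71B6 on the opposite strand, a gene at 49.3 to 62.9 CPM in the 3 genotypes, and since no source used here tells whether counting used strand, its reads could be split with that gene. The fifth, AT2G29320, had 9.49, 10.8 and 12.5 CPM in cop1-4 and 7.76, 10.9 and 11.1 CPM in spaQ and was not called different (log2 fold change -0.07 ± 0.14, adjusted p = 0.719).

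By annotation or family, other enzymes of the set were placed in sterol or triterpene, phenolic, carotenoid-derived and cell wall metabolism. Their activities were not measured. SQE6 (chr5:8182917-8186704), annotated as a squalene monooxygenase, an enzyme class at the entry to sterols and triterpenes, had 0.0929, 0.0723 and 0.177 CPM in the Col-0 libraries, 4.22, 4.14 and 4.63 CPM in those of cop1-4, and 25.8, 37.3 and 31.9 CPM in those of spaQ. The spaQ libraries stood far above those of cop1-4 (log2 fold change 2.93 ± 0.14, adjusted p = 1.07e-09). SCPL10, a serine carboxypeptidase-like protein of the family that transfers sinapoyl groups, had means of 6.17 ± 0.19 CPM in cop1-4 and 18.3 ± 1.2 CPM in spaQ (log2 fold change 1.62 ± 0.14, adjusted p = 2.56e-07). D27, annotated as a beta-carotene isomerase and known for the first step of strigolactone synthesis, went from 2.95 ± 0.14 to 8.50 ± 0.59 CPM (log2 fold change 1.58 ± 0.15, adjusted p = 1.17e-06). The hydrolase gene AT1G13610 showed a similar step, from 4.28 ± 0.97 to 12.8 ± 1.3 CPM. CSLA15 (chr4:7792016-7796041), of a family that makes cell wall mannans, had 0.217, 0.145 and 0.142 CPM in the Col-0 libraries, 5.33, 4.40 and 3.78 CPM in those of cop1-4, and 6.20, 7.53 and 7.22 CPM in those of spaQ. Its mutants differed least among the genes called higher in spaQ (log2 fold change 0.68 ± 0.16, adjusted p = 2.51e-03).

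Transport was represented by 2 genes that behaved differently. AT3G09450 (chr3:2907479-2910206), annotated in the fusaric acid resistance family, had 0, 0 and 0.0708 CPM in the Col-0 libraries, 4.55, 3.40 and 4.09 CPM in those of cop1-4, and 32.2, 33.6 and 31.8 CPM in those of spaQ. No cop1-4 library came near a spaQ library, and the log2 fold change of 3.07 ± 0.13 (adjusted p = 4.96e-10) was the highest of the 35. PPT2, a translocator that brings phosphoenolpyruvate into plastids, had 8.09, 6.25 and 6.72 CPM in cop1-4 and 6.30, 6.84 and 6.21 CPM in spaQ, and the mutants were not told apart (log2 fold change -0.07 ± 0.14, adjusted p = 0.721).

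A further 6 genes encode resistance or receptor-like proteins, classes that perceive pathogens or extracellular signals. RLP19 (chr2:6533261-6537002), a receptor-like protein, had 0.0929, 0.0362 and 0 CPM in the Col-0 libraries, 13.4, 15.3 and 16.1 CPM in those of cop1-4, and 3.03, 5.24 and 4.87 CPM in those of spaQ. It fell from cop1-4 to spaQ by 1.70 ± 0.18 on the log2 scale (adjusted p = 2.33e-06). The leucine-rich repeat gene AT4G16880 (chr4:9495983-9497313) had 0.155, 0.181 and 0.142 CPM in the Col-0 libraries, 17.2, 25.8 and 23.4 CPM in those of cop1-4, and 16.6, 19.6 and 19.6 CPM in those of spaQ. The mutants overlapped there and were not called different (log2 fold change -0.18 ± 0.12, adjusted p = 0.241). The kinase gene AT1G51820 was the least even of the set, with 7.96, 19.8 and 6.87 CPM in spaQ against 4.70, 4.88 and 4.71 CPM in cop1-4, so that its fold change (log2 1.35 ± 0.30, adjusted p = 1.93e-03) leans on spaQ replicate 2; without that library it was 0.70 (adjusted p = 0.00305). The wall-associated kinase gene AT1G69730 was at 3.69 to 5.81 CPM in cop1-4 and at 11.2 to 13.5 CPM in spaQ, a log2 fold change of 1.34. For the NB-ARC gene AT1G61300 the ranges were 4.45 to 5.40 and 8.49 to 11 CPM (1.07), and for the TIR-NBS-LRR gene AT5G46490 they were 5.65 to 6.43 and 9.46 to 10.6 CPM (0.78). All 3 genes were called higher in spaQ. AT1G61300 has a relative, AT1G61310, with 90.8% identity over 2427 bases, the closest pair of the set, and that relative had 8.37, 3.58 and 2.95 CPM in Col-0, cop1-4 and spaQ.

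CIPK20, a protein kinase of the class that answers calcium through calcineurin B-like sensors, had the most reads of the 35 in cop1-4. This gene (chr5:18586870-18588792) had 0.155, 0.181 and 0.212 CPM in the Col-0 libraries, 77.3, 94.6 and 88.4 CPM in those of cop1-4, and 41.3, 52.0 and 52.7 CPM in those of spaQ. It fell from cop1-4 to spaQ by 0.77 ± 0.10 on the log2 scale (adjusted p = 1.39e-05) with no overlap of the libraries. In cop1-4 it held 21.9% to 25.6% of all reads of the 35 genes, and in spaQ 6.64% to 7.95%. The RING-type gene AT3G11110, of a class that includes ubiquitin ligases, had 0 reads in Col-0, 2.81 ± 0.065 CPM in cop1-4 and 5.40 ± 1.0 CPM in spaQ, at least 27.4-fold and at least 52.7-fold above the floor of 3 reads per library.

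DOG1, the regulator that sets the depth of seed dormancy, lies 625 bases from CIPK20, on the same strand, and is its closest neighbour on that side. DOG1 (chr5:18589418-18591506) had 0.248, 0.0362 and 0.0354 CPM in the Col-0 libraries, 7.10, 8.80 and 9.65 CPM in those of cop1-4, and 4.13, 4.23 and 4.87 CPM in those of spaQ. Like CIPK20 it was lower in spaQ than in cop1-4, and it fell by 0.88 ± 0.18 on the log2 scale (adjusted p = 1.08e-03). Seed storage markers (CRU1, CRU3 and OLE1) summed to 429 to 488 CPM in Col-0, 16.5 to 31.7 CPM in cop1-4 and 118 to 387 CPM in spaQ; all 3 were called lower in cop1-4 (30.3% of all genes were) and 1 was in spaQ (36.1%). The DOG1 level was highest in cop1-4, the genotype with the lowest seed marker sum. Whether the DOG1 level is linked to that of the seed markers was not tested. AT5G62240 (chr5:25002358-25004783), annotated as a cell cycle regulated microtubule associated protein, had 0.155, 0 and 0.106 CPM in the Col-0 libraries, 23.1, 23.3 and 26.6 CPM in those of cop1-4, and 16.2, 20.0 and 18.7 CPM in those of spaQ. Its fall of 0.34 ± 0.12 on the log2 scale (adjusted p = 0.0281) was the only call of the 31 that was lost in leaving out single libraries: it did not pass without cop1-4 replicate 3 (log2 -0.29, adjusted p = 0.0991), spaQ replicate 1 (-0.26, adjusted p = 0.134) or spaQ replicate 3 (-0.36, adjusted p = 0.0583). It overlaps ERL1 on the opposite strand by 82 bases, a gene at 2.83 to 4.69 CPM in the 3 genotypes.

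The annotation gives no function for 5 genes, and they include the gene with the most reads of the set in spaQ. AT2G15020 (chr2:6491425-6493512) had 0.0929, 0.0723 and 0.106 CPM in the Col-0 libraries, 30.7, 23.8 and 23.8 CPM in those of cop1-4, and 94.0, 104 and 98.1 CPM in those of spaQ. It was higher in spaQ by 1.97 ± 0.10 on the log2 scale (adjusted p = 2.86e-09) and held 14.6% to 15.1% of the set's reads there. AT1G65490 (chr1:24354646-24355490) had 0.0619, 0 and 0.0354 CPM in the Col-0 libraries, 11.1, 8.06 and 8.90 CPM in those of cop1-4, and 34.5, 40.4 and 39.5 CPM in those of spaQ, a log2 fold change between the mutants of 2.08 ± 0.13 (adjusted p = 1.27e-08). AT3G28270 (chr3:10538005-10540070), a putative transmembrane protein, had 0.0310, 0.0362 and 0 CPM in the Col-0 libraries, 8.89, 7.17 and 7.92 CPM in those of cop1-4, and 24.4, 25.6 and 27.6 CPM in those of spaQ. AT2G25510 (chr2:10856271-10857217) had 0.186, 0.145 and 0.0354 CPM in the Col-0 libraries, 6.89, 6.80 and 6.72 CPM in those of cop1-4, and 21.5, 24.6 and 21.6 CPM in those of spaQ. The mutants were well separated for both, with log2 fold changes of 1.75 ± 0.11 (adjusted p = 1.83e-08) and 1.79 ± 0.12 (adjusted p = 1.86e-08). AT3G44450 followed with means of 4.96 and 13.1 CPM (log2 fold change 1.46 ± 0.15, adjusted p = 2.03e-06).

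Levels of different genes were compared only per kb of exon. On that scale MIR163 (45.5 CPM per kb) and CIPK20 (45.1 CPM per kb) were the most abundant of the set in cop1-4, followed by AT4G16880 (18.5 CPM per kb). In spaQ the order was MIR163 (95 CPM per kb), AT1G65490 (52.4) and AT2G15020 (47.2), with CIPK20 at 25.3 CPM per kb. The microRNA precursor and these 2 unannotated genes thus stood above all annotated protein-coding genes of the set in spaQ.

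MIR163 encodes the precursor of a microRNA that is known to act on mRNAs of S-adenosylmethionine-dependent methyltransferases. The reads were counted over the precursor gene and do not measure the mature microRNA. MIR163 had 0.279, 0.108 and 0.177 CPM in the Col-0 libraries, 14.3, 13 and 18 CPM in those of cop1-4, and 31.6, 33.4 and 29.3 CPM in those of spaQ. Its 3 genotypes formed 3 separate steps, and spaQ was above cop1-4 by 1.13 ± 0.11 on the log2 scale (adjusted p = 1.6e-06). A search for sites with at most 5 mismatches to miR163 found 5 transcripts, among them the 2 methyltransferase genes whose sites are printed above. Counted without gaps, those 2 sites had 5 mismatches each, and the sites in FDM1 and AT1G64840 had 4 each. With a gap allowed, the letters atcg before the capitals of the 2 printed sites also match miR163. The ungapped counts therefore do not rank the sites by pairing, and no search with gaps was made.

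PXMT1, a methyltransferase gene on the same chromosome as MIR163 (chr1:24873206-24874766), had 304, 216 and 252 reads in Col-0, 2, 2 and 6 reads in cop1-4 and 0, 1 and 1 reads in spaQ. In CPM its mean went from 8.72 ± 0.82 (SD, n = 3) in Col-0 to 0.134 ± 0.12 in cop1-4 and 0.0203 ± 0.018 in spaQ. The ratio of Col-0 to cop1-4 was 72.6 (95% exact interval for counting error 39.3 to 152) and that of Col-0 to spaQ was 426 (118 to 3523). By edgeR's quasi-likelihood test the log2 fold change in cop1-4 was -5.81 ± 0.31 (SE, adjusted p = 2.6e-10). AT1G66690, with the same site, had 1.81 ± 0.28 CPM in Col-0, 0.630 ± 0.17 CPM in cop1-4 and 0.207 ± 0.10 CPM in spaQ, and fell by 1.19 ± 0.32 (adjusted p = 0.00449) and by 2.69 ± 0.37 (adjusted p = 9.67e-06) on the log2 scale. Both methyltransferase genes had their lowest level in the genotype with the most MIR163 reads, and whether miR163 lowered them was not tested. AT1G66720, a methyltransferase gene next to MIR163 in which the search found no site, went the other way at very low levels. Its means were 0.0118 CPM in Col-0, 0.156 CPM in cop1-4 and 0.408 CPM in spaQ, and it was not among the genes tested. Of the other 3 transcripts with a site, AT5G23430 was called lower in both mutants, FDM1 higher in cop1-4 and lower in spaQ, and AT1G64840 in neither. The log2 fold changes in spaQ were -0.32 ± 0.09 for FDM1 (adjusted p = 0.00782), -0.13 ± 0.09 for AT1G64840 (adjusted p = 0.191) and -1.21 ± 0.11 for AT5G23430 (adjusted p = 9.74e-08), and those in cop1-4 were 0.33 ± 0.09 (adjusted p = 0.00688), -0.08 ± 0.09 (adjusted p = 0.469) and -0.47 ± 0.11 (adjusted p = 0.00144) in the same order. MIR163 and PXMT1 share 78.6% identity over 126 bases, and whether reads were exchanged between them was not tested.

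**Figure D4:**
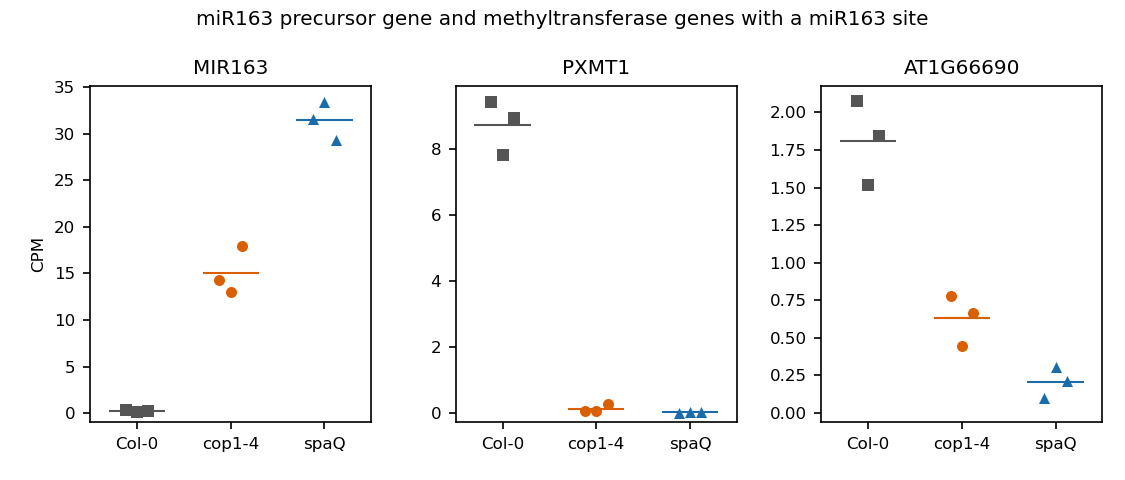
The CPM of the precursor gene MIR163 and of the methyltransferase genes PXMT1 and AT1G66690 is shown for each of the 9 libraries, with a line at the mean of 3 libraries per genotype; each panel has its own linear axis. MIR163 goes from 0.188 to 15.1 and 31.5 CPM while PXMT1 goes from 8.72 to 0.134 and 0.0203 CPM and AT1G66690 from 1.81 to 0.630 and 0.207 CPM.

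The 35 genes lay on all 5 chromosomes, with 10, 6, 9, 4 and 6 genes on chromosomes 1 to 5. Genes next to them were often called higher in the mutants too, although they were no part of the rule. A neighbour was the nearest gene on each side that did not overlap the member, so that the genes overlapping 6 of the members were left out. Of the 68 such neighbours outside the set, 41 were tested. Of these, 26 (63.4%) were called higher in cop1-4 and 25 (61.0%) in spaQ, against the 31.8% and 35.5% of all genes. Among the 33 neighbours with at least 1 CPM in Col-0, 19 (57.6%) were called higher in each mutant, against 31.7% and 35.4% of all genes at that level. The 2 comparisons share the Col-0 libraries. No test of these shares was made, and 12 of the 35 genes had a neighbour of related sequence.

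Several of these neighbours were among well-known loci. RPP4, a downy mildew resistance gene 145 bases from AT4G16880, stood at 0.620 ± 0.15 (Col-0), 114 ± 19 (cop1-4) and 45.9 ± 2.1 CPM (spaQ), and its level fell from cop1-4 to spaQ by 1.26 ± 0.12 on the log2 scale (adjusted p = 6.59e-07). On the other side, the resistance gene SNC1 went from 18.1 ± 3.0 to 200 ± 36 and 164 ± 5.0 CPM. AT4G16880 thus lay between 2 resistance genes that were also higher in both mutants (log2 fold changes of 7.85 and 6.59 for RPP4 and of 3.79 and 3.56 for SNC1, with adjusted p-values of at most 6.16e-12). The rise did not hold for every gene of the RPP5 cluster. Of the 8 genes listed for it, which include RPP4 and SNC1 but not AT4G16880, 5 were called higher and 1 lower in each mutant. The gene called lower was AT4G16920, with log2 fold changes of -1.112 in cop1-4 and -2.002 in spaQ. AT4G16900 was called in neither mutant. In the CYP706A cluster the neighbours of CYP706A6 parted: CYP706A5, 89.4% identical to it over 1637 bases, had 6.73 ± 0.78 CPM in Col-0, 67.8 ± 2.3 CPM in cop1-4 and 68.2 ± 3.9 CPM in spaQ, whereas CYP706A7 had 14.6 ± 2.5, 16 ± 2.0 and 4.22 ± 0.33 CPM. CYP706A6 was the only one of the 7 CYP706A genes in the set.

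SQE6 and its relative SQP1, annotated as an FAD/NAD(P)-binding oxidoreductase, showed the same order of genotypes. SQP1, which is 86.2% identical to SQE6 over 1663 bases, had 0.239 ± 0.02 CPM in Col-0, 10.8 ± 0.87 CPM in cop1-4 and 65.7 ± 4.2 CPM in spaQ, and it was just above the Col-0 limit of the rule. Its step from cop1-4 to spaQ (log2 2.67 ± 0.09, adjusted p = 5.15e-11) was close in size to that of SQE6. SDR1, the closest relative of SDR2 with 86.2% identity over 1004 bases, went from 0.805 ± 0.06 to 39.8 ± 1.0 and 78.8 ± 5.0 CPM. CYP71B26, beside CYP71B4, went from 4.15 ± 0.43 to 42.6 ± 5.5 and 43.0 ± 3.8 CPM, and AT2G29310, beside AT2G29320, from 2.47 ± 0.50 to 24.9 ± 1.9 and 30.5 ± 4.5 CPM. Each of these 4 genes was called higher in both mutants, with log2 fold changes of at least 3.65.

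**Figure D5:**
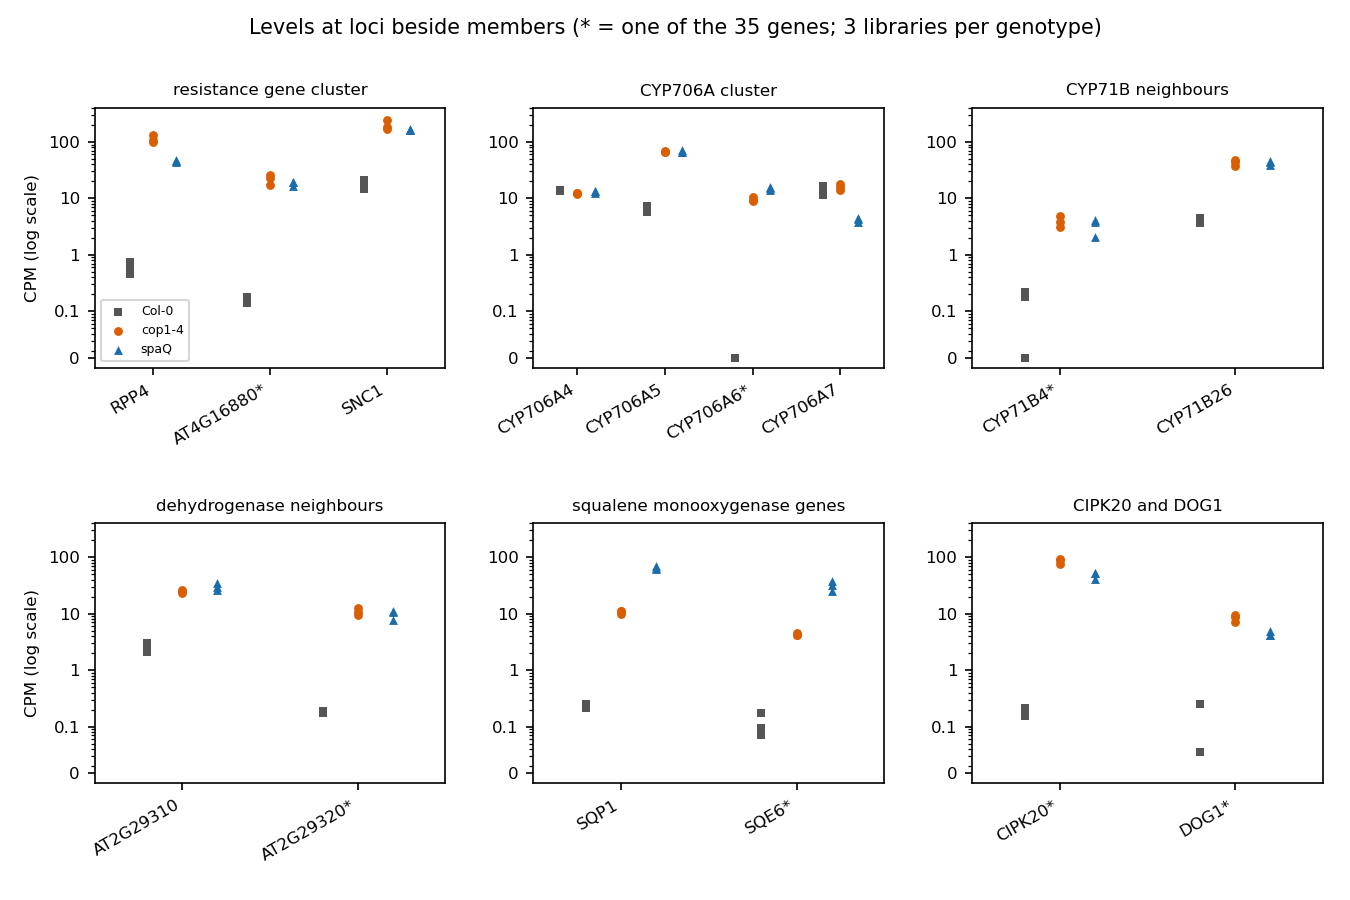
CPM (log scale, 0 drawn at the bottom tick) is shown in each library for genes at 6 loci, with an asterisk for members of the set; squares are Col-0, circles cop1-4 and triangles spaQ. RPP4, SNC1, CYP706A5, CYP71B26, AT2G29310 and SQP1 are higher in both mutants than in Col-0, as are the members at the same loci, while CYP706A4 stays between 11.9 and 14.3 CPM in all 9 libraries.

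A closest relative with at least 100 aligned bases was found for 29 of the 35 genes, and 26 different genes outside the set were such relatives. Of the 21 that were tested, 8 were called higher and 6 lower in cop1-4, where 31.8% and 30.3% of all genes were. In spaQ 10 were called higher and 7 lower, where 35.5% and 36.1% of all genes were, and no test of these shares was made. CSLA10, the relative of CSLA15 with 82.7% identity over 1039 bases, went the other way, with 0.690, 0.0371 and 0.0486 CPM in the 3 genotypes. SCPL11, the relative of SCPL10, went from 92.6 to 27.3 and 17.7 CPM. The member and its relative went in opposite directions in these families. No member had a stretch of 100 or more bases at 95% identity in another transcript except SDR2, through its overlap with CYP71B6.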

How the data were processed

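The authors deposited raw read counts per gene for 9 libraries, made from total RNA with TruSeq procedures per the labels' protocols. Per the submitters' processing notes, FastQC, Bowtie2, TopHat, HTSeq and DESeq2 were used with the build TAIR10, without versions or roles. The strand setting is not given in the sources used here, so reads of overlapping genes cannot be told apart. The authors also deposited log2 fold changes and adjusted p-values per mutant, used here only as quoted.

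CPM was computed from each column sum. All 32548 AT identifiers matched the RefSeq annotation of TAIR10.1, which supplied names, positions and sequences; none of the 1107 other features met the limits. Counts were tested with edgeR 4.0.16 (R 4.3.3): filterByExpr, TMM scaling and glmQLFTest on the 9 libraries in 1 model of genotype, 6 residual degrees of freedom and Benjamini-Hochberg adjustment over 20779 genes, called below 0.05. The fit was tested on simulated data. Standard errors come from the fold change and its statistic. Counting intervals and floors cover counting error only. Relatives were found with BLAST 2.17.0.

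The members and lists were chosen with earlier results of these data known. Library values are given for the 12 members with the highest mean CPM over the 6 mutant libraries, for the 6 largest and 6 smallest log2 fold changes between the mutants among members called, and for members of a list; other members have means or ranges, and library values where the mutants' libraries overlapped or 1 stood apart. Genes beside members were chosen after the members were known. Alternatives were other scalings, no filter, DESeq2 1.42.0, the mutant libraries alone, a replicate block, other limits and leaving out each library.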

Additional observations from a re-analysis of the deposited data

How the results depend on the processing

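The number of genes in the set depends on the limits: 16 genes with a Col-0 mean below 0.1 CPM, 74 below 0.5 CPM, 58 at 1 CPM or more in every mutant library and 16 at 5 CPM or more, against 35. TMM-scaled CPM gave 41, and leaving out single libraries gave 35 to 38. Between the mutants, 31 members were called under every setting that kept all libraries of the contrast, and 30 to 32 in leaving out single libraries; all genes called numbered 9862, and 8437 to 10232 in leaving out single libraries. Of 35 member fold changes, 30 kept their direction and call under all 15 settings. The exceptions were AT5G62240, given in the report, AT4G16880, called lower in spaQ without cop1-4 replicate 1 (-0.32, adjusted p = 0.0173), and 3 genes never called, whose sign turned: PPT2 (0.074 without cop1-4 replicate 1, range -0.156 to 0.074 over single libraries left out), CYP71B4 (0.00554 without cop1-4 replicate 2, 0.0645 without spaQ replicate 1, range -0.366 to 0.0645) and AT2G29320 (0.0266 without cop1-4 replicate 3, 0.0839 without spaQ replicate 1, range -0.159 to 0.0839). The cause was not tested. With library totals in place of TMM the median of all genes moved to -0.31 in cop1-4 and -0.39 in spaQ on the log2 scale; CYP706A7 then missed the threshold in cop1-4 (0.13, adjusted p = 0.374), and 56.1% and 51.2% of the neighbours were called higher, against 19.6% and 22.9% of all genes.

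Replicate numbers did not pair the libraries: correlations of same-numbered deviations ran from -0.149 to 0.163, 1 of 9 was over 0.1, and 4 of 9 libraries matched their own number best. With a replicate block, 31 members and 9585 genes were called between the mutants.

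Depth limits the Col-0 side for genes near the limit, such as MIR163 with 17 reads over 3 libraries: without Col-0 replicate 2 or 3, 33 of the 35 genes remained in the set.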

Other observations

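Genes silent in Col-0 that came on in spaQ but not in cop1-4 included flavonoid and anthocyanin genes. Of 23 such genes in a list, 10 were below 0.2 CPM in Col-0; 6 of these reached 2 CPM in every spaQ library and none did in every cop1-4 library. LDOX, which makes anthocyanidins, had means of 0.0477, 0.347 and 15.9 CPM in Col-0, cop1-4 and spaQ. DFR, the step before it, had 0.0681, 0.411 and 13.1 CPM, and TT19, a glutathione transferase that carries anthocyanins, 0.0789, 0.603 and 16.4 CPM. The regulator TT8 had 0.138, 0.317 and 7.70 CPM. Over the whole list, 17 of 20 genes tested were called higher in spaQ than in cop1-4 and 0 lower by edgeR's quasi-likelihood test, with a median log2 fold change of 2.82, against 24% and 23.5% of all genes and a median of -0.01. The list was chosen with earlier results known.

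Light-harvesting antenna genes, like the flavonoid list, gave no member of the set: 1 of 21 was below 0.2 CPM in Col-0, and their summed level went from 3937 to 4845 CPM in Col-0 to 27990 to 30120 CPM in cop1-4 and 12350 to 14680 CPM in spaQ.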
